A study of Danio rerio with 18 samples.

Results

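Rab proteins and EHD proteins move and shape the membrane vesicles that carry cargo inside animal cells, and their transcripts were described here in eggs and ovarian follicles of zebrafish of the sinhcaf-/- genotype and of wild type. The group was taken by name: every gene whose symbol begins with rab and a digit, or with ehd and a digit from 1 to 4, which gave 87 of the 25432 genes of the table. Of these, 53 reached 1 FPKM (fragments mapped per kilobase of transcript, scaled to the size of the library) in at least 4 of the 18 libraries and were tested. The name rule also takes in proteins that bind or regulate Rabs, such as rab3gap1 and the rab11fip genes, and rab5if, which is not a Rab.

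There were 5 libraries of sinhcaf-/- mature eggs, 5 of wild-type mature eggs, 4 of sinhcaf-/- FG follicles and 4 of wild-type FG follicles. Each library pooled the eggs or follicles of 1 female, with the ovary as the labelled tissue, and FG is written as in the labels. The strain, the age of the fish and the nature of the sinhcaf allele are not given in the sources used here. The product of sinhcaf is a subunit of a SIN3 histone deacetylase co-repressor complex.

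A Rab is a small GTPase that sits on 1 kind of membrane when bound to GTP and recruits effectors that move, tether or fuse vesicles. Exchange factors load it with GTP, GTPase-activating proteins switch it off, and a prenyl anchor holds it in the membrane. EHD proteins are ATPases that bend and cut the tubules through which endosomes return cargo to the cell surface. In egg-laying vertebrates the growing oocyte takes up yolk by endocytosis and stores cortical granules that are released by exocytosis when the egg is activated, and in mouse oocytes vesicles that carry Rab11a organise the cytoplasmic actin network.

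The sinhcaf transcript itself averaged 0.248 ± 0.0651 FPKM in sinhcaf-/- eggs and 0.726 ± 0.509 FPKM in wild-type eggs (mean ± SD, n = 5 each), and ranged from 0.184 to 0.351 in the mutants and from 0.361 to 1.59 in wild type, without overlap (exact two-sided permutation p = 0.00794, limma adjusted p = 0.210). In FG follicles it averaged 0.607 ± 0.315 FPKM in sinhcaf-/- and 2.14 ± 1.12 FPKM in wild type, with overlapping ranges (mean ± SD, n = 4 each, exact permutation p = 0.0857, limma adjusted p = 0.0115). Only FPKM values were used, with no counts, and sequencing depth is therefore unknown. Summed FPKM was 376795 to 464199 per library for sinhcaf-/- eggs, 375178 to 404150 for wild-type eggs, 287120 to 305601 for sinhcaf-/- FG follicles and 309889 to 340960 for wild-type FG follicles. Mitochondrial genes held 37.1 to 51.0% of it in sinhcaf-/- eggs, 33.1 to 37.9% in wild-type eggs, 7.64 to 13.8% in sinhcaf-/- FG follicles and 14.01 to 17.7% in wild-type FG follicles. In both genotypes 12 of the 53 tested Rab and EHD genes (22.6%) were higher in both egg libraries 4 and 5 than in all of 1 to 3. By the same rule 0 were lower, where 21.8% of all tested genes were higher and 2.92% lower. Across genes the sinhcaf-/- egg libraries split as 1 to 3 (r = 0.977 to 0.986) against 4 and 5 (r = 0.987), with 0.965 to 0.976 between these sets. The wild-type egg libraries did not split cleanly: library 2 was as close to 4 (r = 0.982) as to 1 (r = 0.982). Libraries 1 and 3 of sinhcaf-/- FG follicles resembled each other (r = 0.994 across genes) more than the other pairs of that group (0.964 to 0.974). So did libraries 1 and 3 of wild-type eggs (r = 0.993, other pairs 0.963 to 0.982), which no setting averaged. Granulosa markers summed to 37.2 to 136 FPKM in sinhcaf-/- and 27.8 to 37.1 FPKM in wild-type eggs, and to 124 to 228 FPKM in sinhcaf-/- and 49.8 to 94.5 FPKM in wild-type FG follicles, mostly from cyp11a1 and, in the follicles, inha. In eggs cyp11a1 averaged 85.8 FPKM in sinhcaf-/- and 30.8 FPKM in wild type. No other granulosa marker averaged above 0.393 FPKM in eggs (foxl2b in sinhcaf-/-). Of the 15 granulosa markers in the table, 9 were tested; 1 was called higher in sinhcaf-/- eggs and 4 in sinhcaf-/- FG follicles. Leukocyte markers, mostly cxcr4b in eggs, summed to 6.15 to 12.5 FPKM in sinhcaf-/- and 1.26 to 3.23 FPKM in wild-type eggs, and to 4.16 to 23.2 FPKM in sinhcaf-/- and 3.74 to 4.58 FPKM in wild-type FG follicles, and 1 and 2 of 3 tested markers were called higher. In eggs cxcr4b averaged 8.34 FPKM in sinhcaf-/- and 1.15 FPKM in wild type, and no other leukocyte marker averaged above 0.785 FPKM (mfap4 in sinhcaf-/-). The granulosa marker foxl2a was listed at 0 in every egg library, as were 3 of 9 rows of erythrocyte markers. In FG follicles amh and cyp19a1a stayed under 0.2 FPKM in every library. Theca and stromal markers summed to 63.1 to 87.1 FPKM in sinhcaf-/- and 63.2 to 99.9 FPKM in wild-type eggs, mostly from cyp17a1. The cyp17a1 transcript averaged 69.9 FPKM in sinhcaf-/- and 75.8 FPKM in wild-type eggs. No other theca or stromal marker averaged above 2.26 FPKM in eggs (fn1a in wild type). In FG follicles the theca and stromal markers summed to 64.5 to 90.9 FPKM in sinhcaf-/- and 79.0 to 108 FPKM in wild type. The follicle sums came mostly from cyp17a1, acta2 and tagln. Of 5 tested, 0 were called higher and 1 lower at each stage. The 1 tested endothelial marker, cldn5b, was called higher in sinhcaf-/- eggs only. It averaged 7.03 FPKM in sinhcaf-/- and 4.61 FPKM in wild-type eggs, and had 1.65 to 2.73 FPKM in the FG follicle libraries. The next highest egg mean among endothelial markers was that of kdrl, with 0.169 FPKM in sinhcaf-/- and 0.423 FPKM in wild type. In the same order tek averaged 0.103 and 0.292 FPKM, and fli1a 0.191 and 0.0905 FPKM. Of 2 tested erythrocyte markers 0 were called in eggs and 1 higher in FG follicles. Oocyte markers summed to 2663 to 3469 FPKM in sinhcaf-/- and 2803 to 3231 FPKM in wild-type eggs, and to 2901 to 3112 FPKM in sinhcaf-/- and 2868 to 3446 FPKM in wild-type FG follicles, mostly from h1m, dazl and, in the follicles, buc. Of 12 oocyte markers 11 were tested; 2 were called higher and 0 lower in sinhcaf-/- eggs, and 3 higher and 2 lower in sinhcaf-/- FG follicles. Among them zar1 had 5.35 to 8.16 FPKM in sinhcaf-/- and 4.38 to 6.98 FPKM in wild-type eggs, and 162 to 302 FPKM in sinhcaf-/- and 107 to 279 FPKM in wild-type FG follicles, and mos was listed at 0 in every egg library. The part of these other cells in the results below was not tested, and in pooled eggs and follicles fewer cells of a type and less RNA per cell cannot be told apart.

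The heat map of levels shows the 53 tested genes. Levels per length differed widely between genes. The highest means over the 18 libraries were those of rab35b, rab5if, rab10 and rab2a. Summed over all 87 genes, the level had a median of 773 FPKM in sinhcaf-/- eggs (686 to 844) and of 695 FPKM in wild-type eggs (644 to 768). The median was 1275 FPKM in sinhcaf-/- FG follicles (1242 to 1337) and 1372 FPKM in wild-type FG follicles (1346 to 1474).

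**Figure D1:**
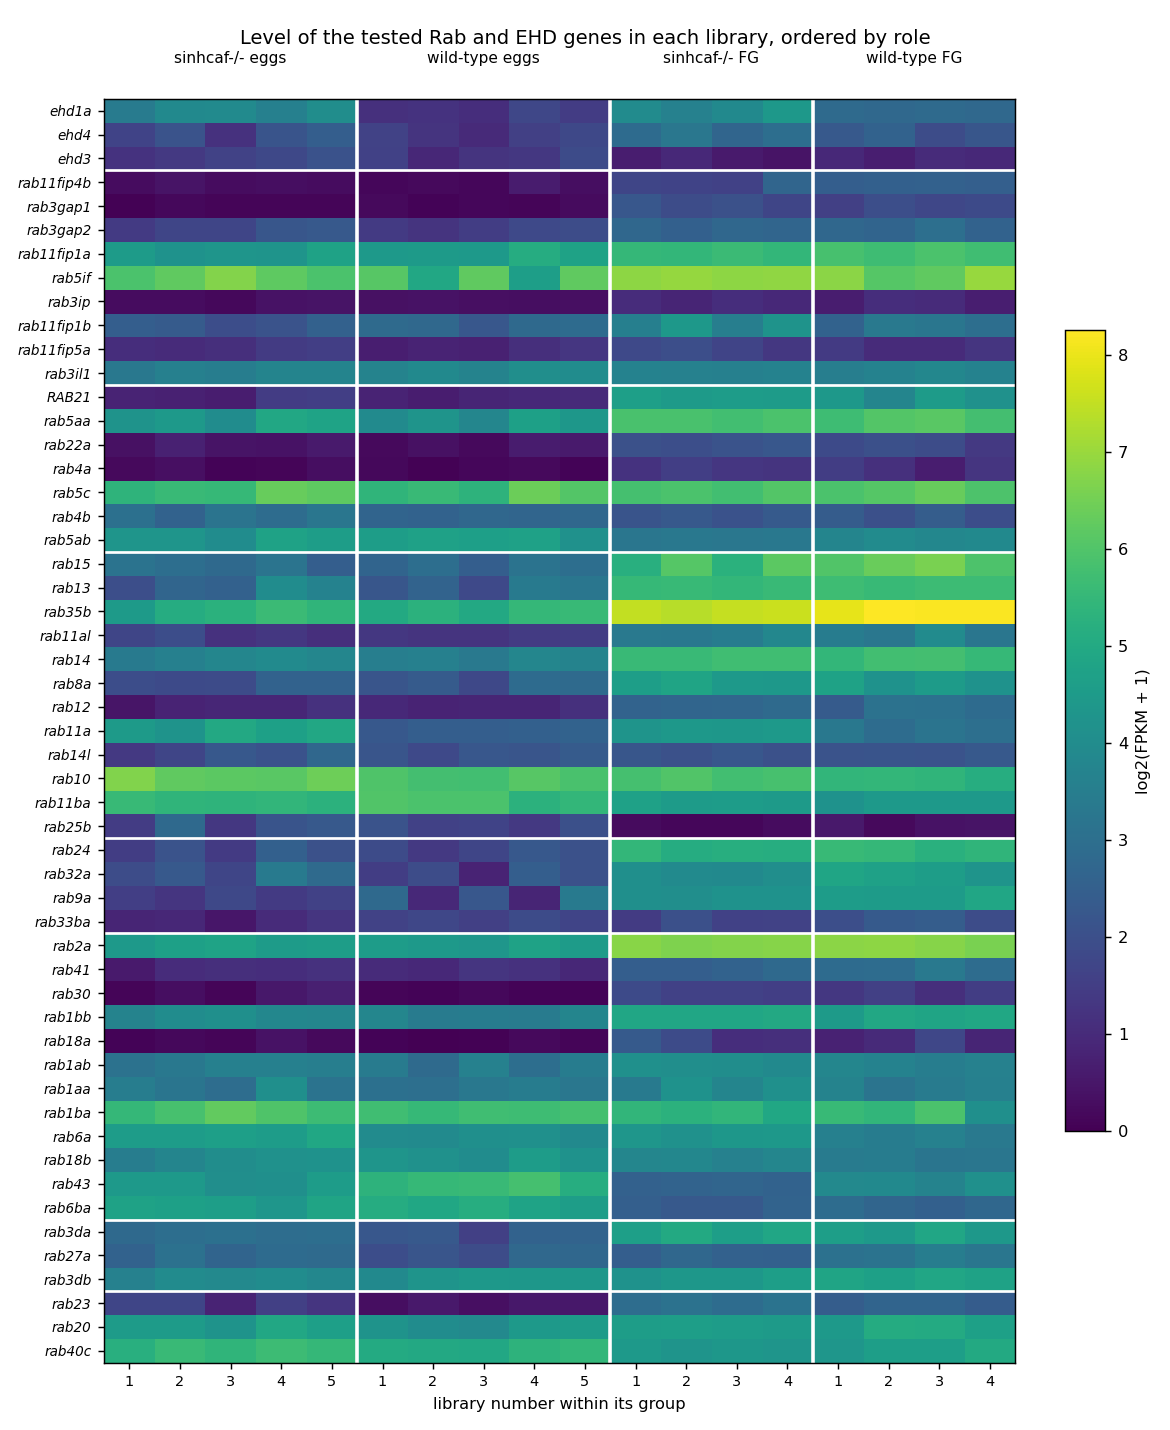
Level of the 53 tested Rab and EHD genes in each of the 18 libraries, as log2(FPKM + 1) in colour, with columns grouped by genotype and stage and rows grouped by role between the white lines, from EHD proteins at the top to other Rabs at the bottom. The brightest row is rab35b in FG follicles, with 163 to 192 FPKM in sinhcaf-/- and 248 to 305 FPKM in wild type.

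The 34 genes that were not tested comprised 8 listed at 0 in every library (rab36, ehd1b, rab3c, rab32b, rab3aa, rab40b, rab8b and rab42b), 21 that stayed above 0 and under 1 FPKM, and 5 that reached 1 FPKM in 1 to 3 libraries. Just inside the rule was rab3ip, with 4 such libraries, and just outside it was rab9b, with 3. The late endosome gene rab7 was listed at 0 in 16 libraries. The housekeeping gene hprt1 was likewise listed at 0 in 17 libraries, so a listed 0 may be a failed estimate.

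A gene was called changed when its Benjamini-Hochberg adjusted p over all 10547 tested genes was under 0.05 in a limma fit of log2(FPKM + 1). In eggs, 9 of the 53 genes were called between sinhcaf-/- and wild type, 6 higher and 3 lower. Of all tested genes 15.1% were called in eggs, 7.35% higher and 7.71% lower, so the 17.0% of this group lay near that background. In FG follicles 16 of 53 were called, 8 higher and 8 lower, which is 30.2% where 23.5% of all tested genes were called, 10.1% higher and 13.4% lower. The median log2 change of the 53 genes was 0.11 in eggs and 0.00 in FG follicles, where that of all tested genes was 0.04 and -0.05. Libraries of the genotypes did not overlap for 8 of the 53 genes in eggs (11.1% of all tested genes) and for 19 in FG follicles (29.0%). All 8 in eggs were called. In FG follicles 13 of the 19 were called, and 3 called genes (rab33ba, rab11fip4b and rab11fip5a) did overlap.

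Of the 53 genes, 8 were called in both comparisons and in the same direction: ehd1a, rab11a, rab6a, rab10 and rab23 were higher in sinhcaf-/- at both stages, and rab43, rab33ba and rab3db were lower. That is 15.1% of the group, 8 of 9 egg calls and 8 of 16 FG follicle calls, where 6.39% of all tested genes were called at both stages in the same direction. Over all tested genes these were 674 of 1588 egg calls and 674 of 2475 FG follicle calls. The egg and follicle libraries share no sample, but the spread of each gene was estimated from all 18 libraries. The calls at the stages are therefore not independent. With the replicate number as a block within each stage 14 genes (26.4%) were called in eggs, where 18.5% of all tested genes were, adding ehd4, rab20, rab27a, rab32a and rab3il1. The FG follicle count moved with the libraries: it was 9 with libraries 1 and 3 of sinhcaf-/- averaged into 1 (also 9 without sinhcaf-/- library 1 and without wild-type library 3, 10 without sinhcaf-/- library 2 and without library 3) and 6 with libraries 2 and 4 alone. Of all tested genes 19.0% were called with the averaged libraries and 15.03% with libraries 2 and 4 alone. The 7 genes lost on averaging were ehd4, rab11fip4b, rab11fip5a, rab23, rab33ba, rab3db and rab41.

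The split of calls moved with the scaling of the libraries. In eggs the 6 higher and 3 lower calls became 5 and 4 after rescaling to TPM, 10 and 2 in TPM without mitochondrial genes, and 6 and 6 with median-of-ratios scaling. Over all tested genes the egg calls were 775 higher and 813 lower as FPKM, 569 and 1087 in TPM, 1263 and 670 in TPM without mitochondrial genes, and 755 and 1202 with median-of-ratios scaling. In FG follicles the 8 and 8 became 10 and 2 in TPM, 8 and 4 in TPM without mitochondrial genes, 8 and 4 with median-of-ratios scaling and 11 and 7 with quantile normalization. Over all tested genes the FG follicle calls were 1061 higher and 1414 lower as FPKM, 1175 and 785 in TPM, 867 and 992 in TPM without mitochondrial genes, 881 and 859 with median-of-ratios scaling and 1276 and 1286 with quantile normalization. TPM shifted the median log2 change of all genes in FG follicles by 0.128. TPM without mitochondrial genes shifted that of eggs by 0.0989. No gene called in either comparison turned direction under any of these.

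**Figure D2:**
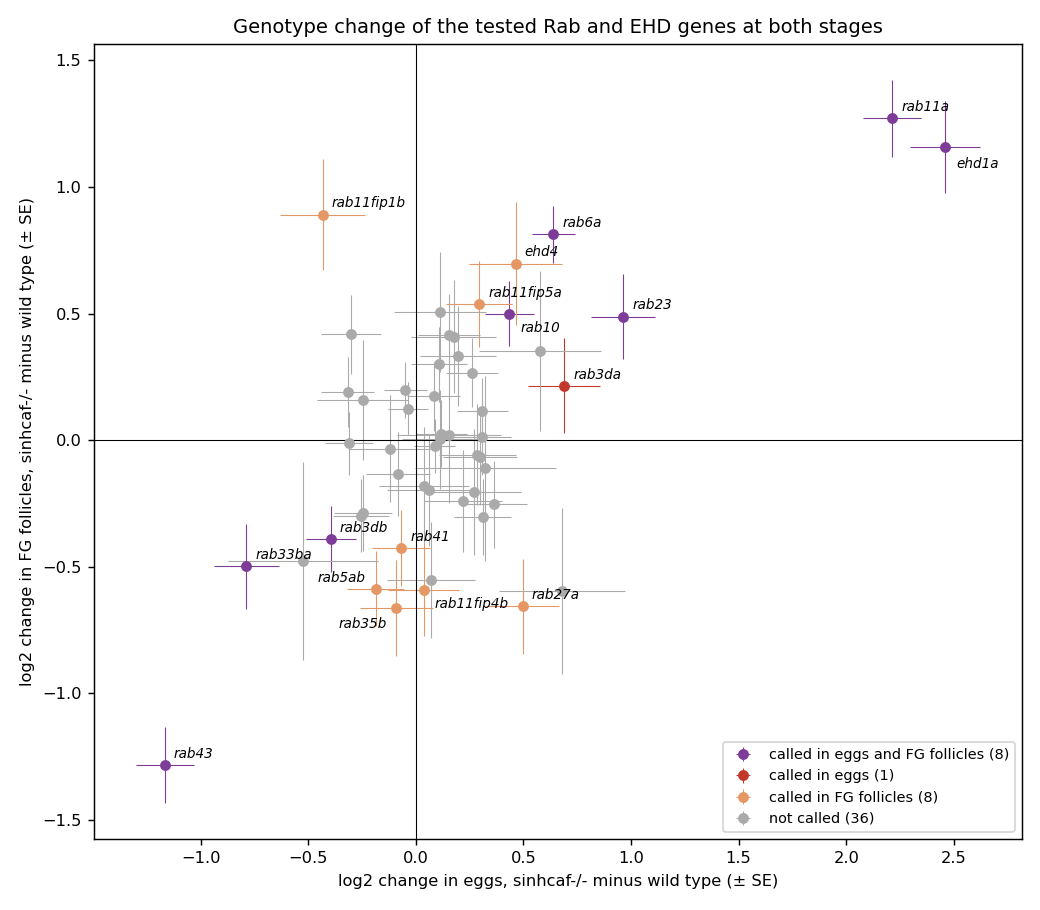
Log2 change (sinhcaf-/- minus wild type, ± SE) of each of the 53 tested genes in eggs on the horizontal axis and in FG follicles on the vertical axis, coloured by where the gene was called. The genes ehd1a and rab11a lie far to the upper right and rab43 to the lower left, while rab11fip1b lies on opposite sides of 0 at the stages.

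Among EHD proteins, ehd1a had the largest change in eggs of all 53 genes. EHD1, known from mammalian cells, cuts tubular recycling endosomes. The transcript had 9.80, 14.3, 14.5, 11.2 and 15.6 FPKM in sinhcaf-/- eggs, against 1.23, 1.30, 1.11, 2.41 and 1.78 FPKM in wild-type eggs. It had 14.8, 11.3, 14.2 and 20.03 FPKM in sinhcaf-/- FG follicles, against 6.19, 5.98, 6.17 and 5.92 FPKM in wild-type FG follicles. Every mutant library lay above every wild-type library at both stages, and the wild-type follicles spanned a narrow range. The log2 change was 2.46 ± 0.16 (SE, limma adjusted p = 2.47e-09) in eggs, a 5.50-fold difference on this scale, and 1.16 ± 0.18 (SE, limma adjusted p = 1.40e-04) in FG follicles. It was called at both stages under each of 35 alternative settings, with values of 2.21 to 3.02 for eggs and 1.02 to 1.38 for follicles.

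The gene ehd4, whose mammalian product acts at early endosomes, had 2.13, 3.33, 1.25, 3.45 and 4.50 FPKM in sinhcaf-/- eggs, against 2.12, 1.36, 0.976, 1.96 and 2.47 FPKM in wild-type eggs. The egg groups overlapped, with a log2 difference of 0.46 ± 0.22 (SE, limma adjusted p = 0.166). In FG follicles ehd4 had 6.43, 8.58, 5.47 and 6.85 FPKM in sinhcaf-/- and 3.98, 5.003, 2.80 and 3.60 FPKM in wild type, without overlap, and was higher by 0.70 ± 0.24 (SE, limma adjusted p = 0.0446). That call was lost under 17 of 35 alternatives, among them without library 2 of sinhcaf-/- eggs, library 1, 2 or 4 of wild-type eggs, library 1, 2 or 4 of sinhcaf-/- FG follicles or library 1, 3 or 4 of wild-type FG follicles (limma adjusted p = 0.0502 to 0.132). With the replicate number as a block within each stage the egg difference was called (limma adjusted p = 0.0331).

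The gene ehd3, whose mammalian product shares tubular recycling endosomes with EHD1, had 1.32, 1.58, 2.07, 2.46 and 3.27 FPKM in sinhcaf-/- and 2.05, 0.894, 1.36, 1.51 and 2.72 FPKM in wild-type eggs. In FG follicles it had 0.590, 0.932, 0.501 and 0.362 FPKM in sinhcaf-/- and 0.949, 0.609, 1.01 and 0.946 FPKM in wild type. The groups overlapped at both stages, with log2 differences of 0.22 ± 0.18 (SE, limma adjusted p = 0.474) in eggs and -0.24 ± 0.20 (SE, limma adjusted p = 0.426) in follicles.

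The other 3 EHD rows were too low to test in the main fit, and ehd1b among them was listed at 0 in every library. The caveola-associated ehd2b had 0.0483, 0.114, 0.116, 0.165 and 0.112 FPKM in sinhcaf-/- and 0.213, 0.170, 0.249, 0.154 and 0.09998 FPKM in wild-type eggs. In FG follicles it had 0.651, 1.66, 0.465 and 1.36 FPKM in sinhcaf-/- and 0.466, 0.355, 0.320 and 0.409 FPKM in wild type, and libraries 2 and 4 of sinhcaf-/- were the highest of these. The row of ehd2a was listed at 0 in all but 2 wild-type FG follicle libraries, which had 0.0230 and 0.0469 FPKM.

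The leading EHD transcript in sinhcaf-/- eggs was ehd1a, whereas in wild-type eggs ehd1a, ehd4 and ehd3 had similar shares. It made up 71.9% ± 6.47 of summed EHD FPKM in sinhcaf-/- eggs and 30.4% ± 7.25 in wild-type eggs (mean ± SD, n = 5 each), and in the wild-type eggs ehd4 held 33.6% ± 4.49 and ehd3 32.1% ± 7.02. In FG follicles ehd1a made up 63.7% ± 9.11 in sinhcaf-/- and 54.4% ± 3.98 in wild type (mean ± SD, n = 4 each). These shares are a description and carry no test. Summed EHD FPKM was 18.3 ± 3.66 in sinhcaf-/- eggs and 5.23 ± 1.49 in wild-type eggs.

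The recycling and plasma membrane sorting Rabs numbered 15, of which 12 were tested; 2 were called higher and 0 lower in eggs, and 2 higher and 1 lower in FG follicles. The most changed was rab11a, the Rab of the recycling endosome. It had 21.9, 17.8, 30.6, 25 and 30.1 FPKM in sinhcaf-/- eggs, against 3.81, 4.49, 4.51, 4.83 and 5.01 FPKM in wild-type eggs. It had 18.2, 19.9, 19.8 and 21.1 FPKM in sinhcaf-/- FG follicles, against 8.96, 6.60, 7.95 and 7.06 FPKM in wild-type FG follicles. No libraries overlapped at either stage, and the lowest mutant egg library stood well above the highest wild-type one. The log2 change was 2.21 ± 0.14 (SE, limma adjusted p = 7.96e-10) in eggs and 1.27 ± 0.15 (SE, limma adjusted p = 6.16e-06) in FG follicles, and it was called under all 35 alternatives at both stages.

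Zebrafish has several Rab11 genes, and rab11ba and rab11al were called at neither stage. The transcript rab11ba, the most abundant of them in eggs, averaged 41.6 ± 2.74 FPKM in sinhcaf-/- and 53 ± 11.1 FPKM in wild-type eggs (mean ± SD, n = 5 each), with a log2 difference of -0.32 ± 0.12 (SE, limma adjusted p = 0.096). The rab11al difference was 0.11 ± 0.18 (SE, limma adjusted p = 0.764) in eggs and 0.00 ± 0.20 (SE, limma adjusted p = 0.995) in FG follicles. As a share of summed Rab11 FPKM, rab11a held 36.3% ± 6.42 in sinhcaf-/- eggs and 7.97% ± 2.20 in wild-type eggs, and 36.9% ± 1.76 in sinhcaf-/- FG follicles and 19.8% ± 2.91 in wild-type FG follicles (mean ± SD, n = 5 each in eggs and 4 each in follicles). The Rab11 sum was 68.7 ± 4.04 FPKM in sinhcaf-/- eggs and 59.2 ± 10.5 FPKM in wild-type eggs, in whose libraries 4 and 5 rab11ba had 38.9 and 43.5 FPKM, against 59.1 to 64.1 FPKM in libraries 1 to 3. How the authors' counting shared reads between such similar genes is not given in the sources used here, so values of paralogues carry that uncertainty.

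**Figure D3:**
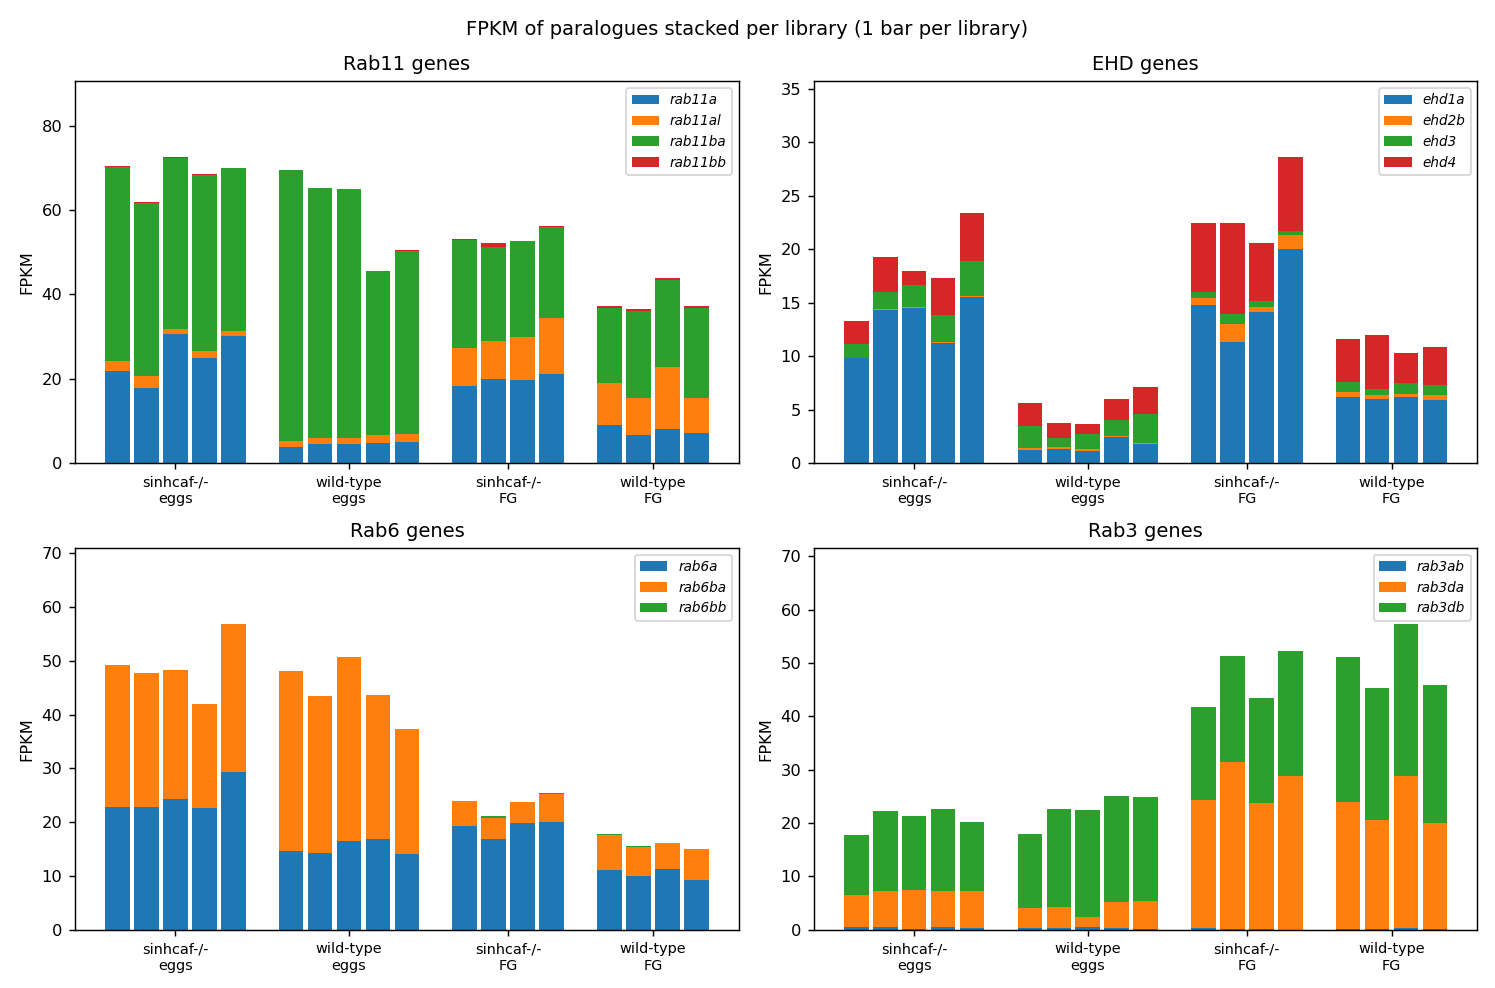
FPKM of Rab11, EHD, Rab6 and Rab3 paralogues stacked in each library (1 bar per library, groups from left to right sinhcaf-/- eggs, wild-type eggs, sinhcaf-/- FG follicles and wild-type FG follicles; genes with under 1% of the sum of their family in every library are left out). The rab11a and ehd1a segments are taller in every mutant library than in every wild-type library of the same stage.

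The gene rab10, a Rab of basolateral and surface delivery in mammalian cells, was abundant in every library. It had 102, 74.96, 70.8, 69.8 and 85.98 FPKM in sinhcaf-/- eggs, against 62.2, 54.5, 52.7, 68.6 and 57.7 FPKM in wild-type eggs. It had 55.7, 63.03, 52.8 and 57.5 FPKM in sinhcaf-/- and 42.5, 43.2, 40.9 and 34.4 FPKM in wild-type FG follicles. The groups did not overlap at either stage, but the change was small, 0.43 ± 0.11 (SE, limma adjusted p = 0.0136) in eggs and 0.50 ± 0.13 (SE, limma adjusted p = 0.00797) in FG follicles. The egg call was lost in TPM, with median-of-ratios scaling and in egg libraries 4 and 5 alone.

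The gene rab35b, whose mammalian relative drives fast recycling from the plasma membrane, was the most abundant of the group by its mean over the 18 libraries. It had 178, 163, 185 and 192 FPKM in sinhcaf-/- FG follicles, against 248, 305, 297 and 293 FPKM in wild-type FG follicles. All mutant follicle libraries lay below all wild-type ones, and the log2 change was -0.66 ± 0.19 (SE, limma adjusted p = 0.0153), not called in TPM (limma adjusted p = 0.109) or with sinhcaf-/- libraries 2 and 4 alone (limma adjusted p = 0.0730). In eggs it had 21.7, 33.9, 38.1, 48.5 and 41.2 FPKM in sinhcaf-/- and 31.6, 38.4, 30.7, 44.7 and 46.8 FPKM in wild type, with overlap and a difference of -0.09 ± 0.17 (SE, limma adjusted p = 0.803).

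Of the 8 early endosome Rabs 7 were tested, and 0 were called in eggs by limma (1 at an unadjusted p under 0.05). In FG follicles 1 was called, rab5ab, a copy of the Rab5 genes that drive early endosome fusion. It had 8.56, 8.79, 8.68 and 8.81 FPKM in sinhcaf-/- and 12.5, 14.8, 13.1 and 14.1 FPKM in wild-type FG follicles, without overlap, with a log2 change of -0.59 ± 0.15 (SE, limma adjusted p = 0.00741). The mutant values lay within a narrow band. The call was lost with sinhcaf-/- libraries 2 and 4 alone (limma adjusted p = 0.0570). The more abundant copies rab5aa and rab5c differed by -0.06 ± 0.20 (SE, limma adjusted p = 0.869) and -0.18 ± 0.23 (SE, limma adjusted p = 0.631) in follicles.

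The late endosome and lysosome-related Rabs numbered 10, with 4 tested. The 1 called was rab33ba, called at both stages. It was counted in this class, although in mammals this Rab sits on the Golgi and takes part in autophagosome formation. It had 0.815, 0.897, 0.413, 1.02 and 1.39 FPKM in sinhcaf-/- eggs, against 2.07, 2.36, 1.93, 2.66 and 2.27 FPKM in wild-type eggs. It had 1.71, 3.02, 2.03 and 2.11 FPKM in sinhcaf-/- and 2.95, 4.02, 4.44 and 2.78 FPKM in wild-type FG follicles. Egg groups did not overlap, and in follicles mutant library 2 reached above 2 of the wild-type libraries. The log2 change was -0.79 ± 0.15 (SE, limma adjusted p = 0.00114) in eggs and -0.50 ± 0.17 (SE, limma adjusted p = 0.0373) in FG follicles, the second lost under 14 of 35 alternatives, among them without library 1, 3 or 4 of sinhcaf-/- FG follicles or library 2 or 3 of wild-type FG follicles (limma adjusted p = 0.0689 to 0.119). The egg call was lost in egg libraries 4 and 5 alone (limma adjusted p = 0.0921). The lysosome-related rab32a and rab9a, and the autophagy-linked rab24, were not called at either stage.

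Of the 17 endoplasmic reticulum and Golgi Rabs 12 were tested; 1 was called higher and 1 lower in eggs, and 1 higher and 2 lower in FG follicles. The lower gene at both stages was rab43, a Rab of the early secretory route in mammals. It had 20.7, 20.7, 15.8, 16.2 and 22.6 FPKM in sinhcaf-/- eggs, against 39.4, 45.1, 47.3, 56.1 and 34.4 FPKM in wild-type eggs. It had 4.96, 5.18, 5.51 and 5.10 FPKM in sinhcaf-/- FG follicles, against 13.7, 14.1, 12.02 and 16.6 FPKM in wild-type FG follicles. The mutant libraries were below the wild-type ones without overlap at both stages. The log2 change was -1.17 ± 0.13 (SE, limma adjusted p = 4.90e-06) in eggs and -1.28 ± 0.15 (SE, limma adjusted p = 4.81e-06) in FG follicles, called in all 35 alternatives at both.

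The gene rab6a, a Golgi Rab of retrograde traffic and of carriers to the cell surface, was higher at both stages. It had 22.9, 22.9, 24.4, 22.6 and 29.3 FPKM in sinhcaf-/- eggs, against 14.7, 14.3, 16.5, 16.8 and 14.2 FPKM in wild-type eggs. It had 19.3, 16.9, 19.8 and 20.1 FPKM in sinhcaf-/- and 11.1, 10.03, 11.2 and 9.20 FPKM in wild-type FG follicles. All mutant libraries exceeded all wild-type libraries of their stage. The change was 0.64 ± 0.10 (SE, limma adjusted p = 1.83e-04) in eggs and 0.81 ± 0.11 (SE, limma adjusted p = 3.71e-05) in FG follicles, kept in all 35 alternatives. Its paralogue rab6ba differed by -0.25 ± 0.13 (SE, limma adjusted p = 0.205) and -0.30 ± 0.14 (SE, limma adjusted p = 0.15), so that rab6a held 50.1% ± 2.84 of summed Rab6 FPKM in sinhcaf-/- eggs and 34.5% ± 3.51 in wild-type eggs, and 80.8% ± 1.88 in sinhcaf-/- and 64.5% ± 3.83 in wild-type FG follicles (mean ± SD, n = 5 each in eggs and 4 each in follicles). The other FG follicle call was rab41, a Golgi Rab in human cells, with 5.05 ± 0.758 FPKM in sinhcaf-/- and 7.15 ± 1.29 FPKM in wild type (mean ± SD, n = 4 each) and a change of -0.43 ± 0.15 (SE, limma adjusted p = 0.0472), lost under 24 of 35 alternatives, among them without library 2, 3 or 4 of sinhcaf-/- eggs, library 1, 2, 4 or 5 of wild-type eggs, library 1, 2 or 3 of sinhcaf-/- FG follicles or library 2, 3 or 4 of wild-type FG follicles (limma adjusted p = 0.0508 to 0.158). The abundant rab2a, which acts between the endoplasmic reticulum and the Golgi, had 21.1, 24.9, 26.97, 22.1 and 23 FPKM in sinhcaf-/- and 22.4, 21.04, 19.5, 25.9 and 22.1 FPKM in wild-type eggs. It had 109.6, 99.5, 105 and 108 FPKM in sinhcaf-/- and 112, 115, 107 and 95.9 FPKM in wild-type FG follicles, and the groups overlapped at both stages (log2 0.09 and -0.02, limma adjusted p = 0.619 and 0.899).

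**Figure D4:**
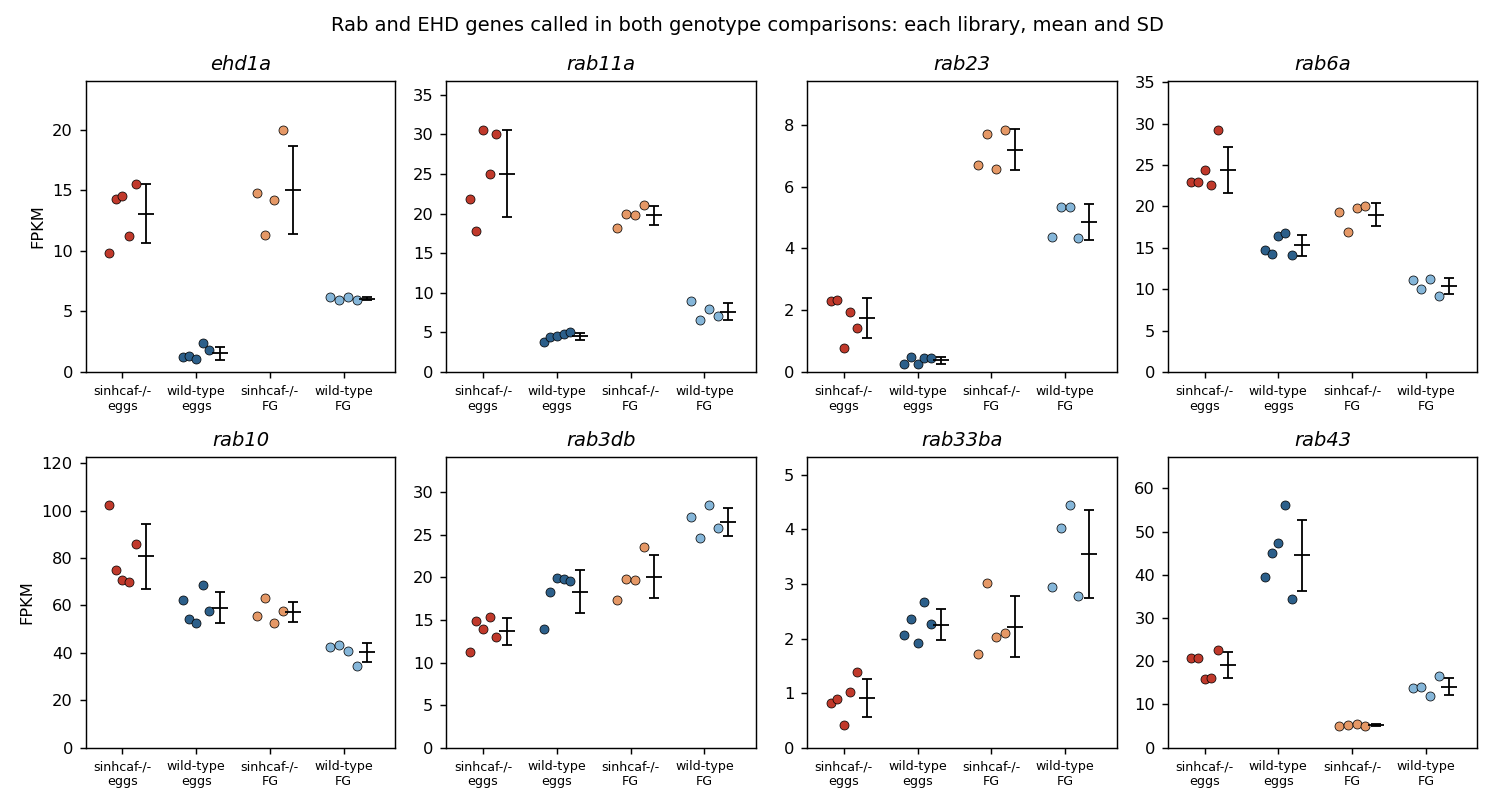
FPKM in each library (points), with the mean and SD beside them, of the 8 genes called in both genotype comparisons, in sinhcaf-/- eggs, wild-type eggs, sinhcaf-/- FG follicles and wild-type FG follicles from left to right. In 6 of the 8 panels the genotypes do not overlap at either stage; rab3db overlaps in eggs and rab33ba in FG follicles.

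The regulated secretion Rabs numbered 9, of which 3 were tested. The gene rab3da, a Rab3D copy known from secretory granules, had 6.08, 6.86, 7.24, 6.81 and 6.87 FPKM in sinhcaf-/- eggs, against 3.74, 3.94, 1.97, 4.99 and 5.22 FPKM in wild-type eggs. The egg groups did not overlap, with a change of 0.69 ± 0.17 (SE, limma adjusted p = 0.00834), not called in egg libraries 4 and 5 alone (limma adjusted p = 0.256). In FG follicles it had 24.1, 31.5, 23.6 and 28.7 FPKM in sinhcaf-/- and 23.9, 20.5, 28.5 and 19.9 FPKM in wild type, with overlap and a difference of 0.21 ± 0.19 (SE, limma adjusted p = 0.455).

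The other Rab3D copy, rab3db, was lower in sinhcaf-/- at both stages. It averaged 13.7 ± 1.62 FPKM in sinhcaf-/- and 18.3 ± 2.52 FPKM in wild-type eggs (mean ± SD, n = 5 each), a change of -0.40 ± 0.12 (SE, limma adjusted p = 0.028). It averaged 20.1 ± 2.55 FPKM in sinhcaf-/- and 26.5 ± 1.66 FPKM in wild-type FG follicles (mean ± SD, n = 4 each), a change of -0.39 ± 0.13 (SE, limma adjusted p = 0.038). These calls were among the least firm, lost under 11 of 35 alternatives in eggs, among them without library 1 or 5 of sinhcaf-/- eggs or library 2, 3, 4 or 5 of wild-type eggs (limma adjusted p = 0.052 to 0.068), and under 12 in FG follicles, among them without library 1, 2 or 3 of sinhcaf-/- FG follicles or library 1, 3 or 4 of wild-type FG follicles (limma adjusted p = 0.0615 to 0.122). The share of rab3da in summed Rab3 FPKM was 32.6% ± 2.01 in sinhcaf-/- and 17.5% ± 5.11 in wild-type eggs, and 57.1% ± 3.17 in sinhcaf-/- and 46.3% ± 2.64 in wild-type FG follicles (mean ± SD, n = 5 each in eggs and 4 each in follicles).

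The third, rab27a, is in mouse oocytes a Rab of cortical granule transport. It had 4.48, 5.73, 4.98 and 4.81 FPKM in sinhcaf-/- FG follicles, against 7.40, 7.82, 10.2 and 8.52 FPKM in wild-type FG follicles. It had 5.07, 7.44, 5.32, 6.47 and 6.22 FPKM in sinhcaf-/- eggs, against 2.89, 3.51, 2.82, 5.87 and 5.77 FPKM in wild-type eggs. The follicle groups did not overlap and the egg groups did, through wild-type libraries 4 and 5. The log2 change was -0.66 ± 0.19 (SE, limma adjusted p = 0.0167) in FG follicles and 0.50 ± 0.17 (SE, limma adjusted p = 0.0545) in eggs, of opposite sign. The follicle call was lost in TPM, in mutant libraries 2 and 4 alone and without library 3 of wild-type FG follicles (limma adjusted p = 0.0572). With the replicate block within stage the egg difference was called (limma adjusted p = 0.0323).

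Of 12 Rab-named regulators, effectors and partners 9 were tested. In eggs 0 were called by limma (2 at an unadjusted p under 0.05). In FG follicles 2 were called higher and 1 lower, where 23.5% of all tested genes were called. All of these encode Rab11 effectors, as does rab11fip1a, which was tested and called at neither stage. The gene rab11fip1b, which encodes a Rab11-binding protein of recycling endosomes, had 10.9, 20.1, 10.6 and 17.8 FPKM in sinhcaf-/- FG follicles, against 5.11, 9.10, 8.56 and 6.91 FPKM in wild-type FG follicles. In eggs it had 4.49, 4.16, 2.83, 3.29 and 4.89 FPKM in sinhcaf-/- and 6.27, 5.89, 3.74, 6.01 and 6.39 FPKM in wild type. Mutant follicle libraries 2 and 4 were the highest, and all 4 lay above the wild-type ones, whereas the egg groups overlapped. In the same follicle libraries 1 to 4 the granulosa marker inha had 6.45, 59.0, 7.00 and 36.1 FPKM in sinhcaf-/-. In wild type inha had 10.1, 2.04, 2.17 and 2.60 FPKM. Granulosa markers were split: lhcgr and hsd3b1 were also highest in sinhcaf-/- libraries 2 and 4, whereas cyp11a1, gsdf and inhbaa were not. The most abundant, cyp11a1, had 102, 113, 111 and 43.9 FPKM in sinhcaf-/-, and 47.2, 37.9, 44.8 and 80.6 FPKM in wild type. The part of granulosa cells in this result was not tested. The rab11fip1b change was 0.89 ± 0.22 (SE, limma adjusted p = 0.00649) in FG follicles, called in all 35 alternatives, and -0.43 ± 0.20 (SE, limma adjusted p = 0.153) in eggs.

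The related rab11fip5a averaged 2.31 ± 0.589 FPKM in sinhcaf-/- and 1.27 ± 0.311 FPKM in wild-type FG follicles (mean ± SD, n = 4 each), a log2 change of 0.54 ± 0.17 (SE, limma adjusted p = 0.0278). The gene rab11fip4b averaged 3.005 ± 1.67 FPKM in sinhcaf-/- and 4.71 ± 0.148 FPKM in wild type (mean ± SD, n = 4 each), a log2 change of -0.59 ± 0.18 (SE, limma adjusted p = 0.0259). Its sinhcaf-/- library 4, with 5.51 FPKM, lay above the wild-type mean. The rab11fip5a call was lost under 8 of 35 alternatives, among them without library 1, 2 or 3 of sinhcaf-/- FG follicles or library 2 or 3 of wild-type FG follicles (limma adjusted p = 0.0527 to 0.0929), and the rab11fip4b call under 13 of 34, among them without library 1, 2 or 3 of sinhcaf-/- FG follicles or library 2 or 3 of wild-type FG follicles (limma adjusted p = 0.0512 to 0.0918). The abundant rab5if, whose mammalian product is a membrane protein of the endoplasmic reticulum, had 59.6, 75.5, 105, 73.6 and 60.2 FPKM in sinhcaf-/- and 68.6, 30.3, 74.1, 23.7 and 73.99 FPKM in wild-type eggs. It had 116, 122, 114 and 118 FPKM in sinhcaf-/- and 113, 66.9, 74.5 and 127 FPKM in wild-type FG follicles. Wild-type libraries of both stages were widely spread, and neither difference passed, with 0.58 ± 0.28 (SE, limma adjusted p = 0.187) in eggs and 0.35 ± 0.32 (SE, limma adjusted p = 0.468) in follicles.

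Of the 10 remaining Rabs 3 were tested, and rab23 was called. Rab23 is known in the mouse as a negative regulator of Hedgehog signalling. It had 2.29, 2.33, 0.776, 1.93 and 1.42 FPKM in sinhcaf-/- eggs, against 0.246, 0.481, 0.271, 0.451 and 0.442 FPKM in wild-type eggs. It had 6.68, 7.69, 6.56 and 7.84 FPKM in sinhcaf-/- and 4.36, 5.35, 5.34 and 4.35 FPKM in wild-type FG follicles. No libraries overlapped, although levels in eggs were low. The change was 0.96 ± 0.15 (SE, limma adjusted p = 1.61e-04) in eggs, kept in all 35 alternatives, and 0.49 ± 0.17 (SE, limma adjusted p = 0.042) in FG follicles, lost under 17 of 35, among them without library 1, 2, 3 or 4 of sinhcaf-/- FG follicles or library 1, 2, 3 or 4 of wild-type FG follicles (limma adjusted p = 0.0525 to 0.09998).

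Whether a genotype change differed between stages was tested as the egg change minus the FG follicle change, on log2(FPKM + 1). Of the 53 genes 5 were called, where 6.95% of all tested genes were. The change was larger in eggs for ehd1a, by 1.30 ± 0.24 (SE, limma adjusted p = 0.0026), and for rab11a, by 0.94 ± 0.20 (SE, limma adjusted p = 0.00773). It was higher in eggs for rab27a, with a difference of log2 changes of 1.15 ± 0.25 (SE, limma adjusted p = 0.00886). It was lower in eggs for rab11fip1b, with -1.32 ± 0.30 (SE, limma adjusted p = 0.00958), and for rab18b, with -0.72 ± 0.21 (SE, limma adjusted p = 0.0442). The lipid droplet and endoplasmic reticulum Rab rab18b was called at neither stage alone, with 14.7 ± 3.09 FPKM in sinhcaf-/- and 18.2 ± 2.93 FPKM in wild-type eggs (mean ± SD, n = 5 each) and 12.5 ± 0.861 FPKM in sinhcaf-/- and 9.15 ± 0.901 FPKM in wild-type FG follicles (mean ± SD, n = 4 each). The rab11a difference was not called in TPM or with quantile normalization (0.76 and 0.28, limma adjusted p = 0.101 and 0.381), and the rab27a difference was not called in TPM (1.05, limma adjusted p = 0.0589). The rab18b difference was lost under 23 of 34 alternatives, among them without library 1, 2 or 3 of sinhcaf-/- eggs, library 1, 2, 4 or 5 of wild-type eggs, library 1, 2, 3 or 4 of sinhcaf-/- FG follicles or library 2, 3 or 4 of wild-type FG follicles (limma adjusted p = 0.0513 to 0.0864). In egg libraries 4 and 5 alone, 3 genes were called and ehd1a, rab11fip1b, rab27a and rab18b were not (limma adjusted p = 0.0536 for ehd1a, 0.0622 for rab11fip1b and 0.0542 for rab27a). The 3 higher and 2 lower calls became 1 and 3 in TPM, 3 and 1 in TPM without mitochondrial genes, and 3 and 4 with quantile normalization. Over all tested genes the 446 higher and 287 lower calls became 161 and 312 in TPM, 328 and 141 in TPM without mitochondrial genes, and 460 and 428 with quantile normalization. TPM shifted the median difference of all genes by -0.194 and median-of-ratios scaling by -0.106.

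Eggs and FG follicles themselves differed for most of the group. In sinhcaf-/- fish 45 of 53 genes were called between stages, 11 higher and 34 lower in eggs, where 81.7% of all tested genes were called, 23.4% higher and 58.3% lower. In wild-type fish 46 were called, 11 higher and 35 lower, where 82.9% were called, 22.1% higher and 60.8% lower. The median log2 difference, eggs minus follicles, was -0.81 in sinhcaf-/- and -0.92 in wild type for these genes, and -0.79 and -0.85 for all tested genes. This lean towards lower values in eggs depended on the scaling: median-of-ratios scaling shifted the median of all genes by 0.705 in sinhcaf-/- and 0.747 in wild type and gave 21 higher and 24 lower in sinhcaf-/- and 23 higher and 23 lower in wild type, and quantile normalization gave 20 and 26 in sinhcaf-/- and 22 and 24 in wild type, with shifts of 0.832 and 0.863. TPM shifted the medians by -0.639 in sinhcaf-/- and -0.471 in wild type, and TPM without mitochondrial genes by -0.111 and -0.204. In both genotypes 41 genes were called in the same direction, 31 lower and 10 higher in eggs, and 0 in opposite directions. The counts include 8 genes that passed the filter on low values through the libraries of 1 stage alone, so that they had to differ: rab11fip4b, rab22a, rab3gap1, rab30, rab18a, rab4a and rab3ip reached 1 FPKM in follicles and in no egg library, and rab25b in eggs and in no follicle library. RAB21 and rab12, with 2 egg libraries at 1 FPKM, and ehd3, with 1 follicle library, also passed only through their higher stage. RAB21, rab12, ehd3 and rab25b also met the minimum of 9 libraries used next. With at least 1 FPKM required in 9 libraries 46 genes were tested, of which 11 were higher and 27 lower in sinhcaf-/- and 11 higher and 28 lower in wild type; of 8232 genes in all, 2352 were higher and 4242 lower in sinhcaf-/- and 2223 higher and 4491 lower in wild type.

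**Figure D5:**
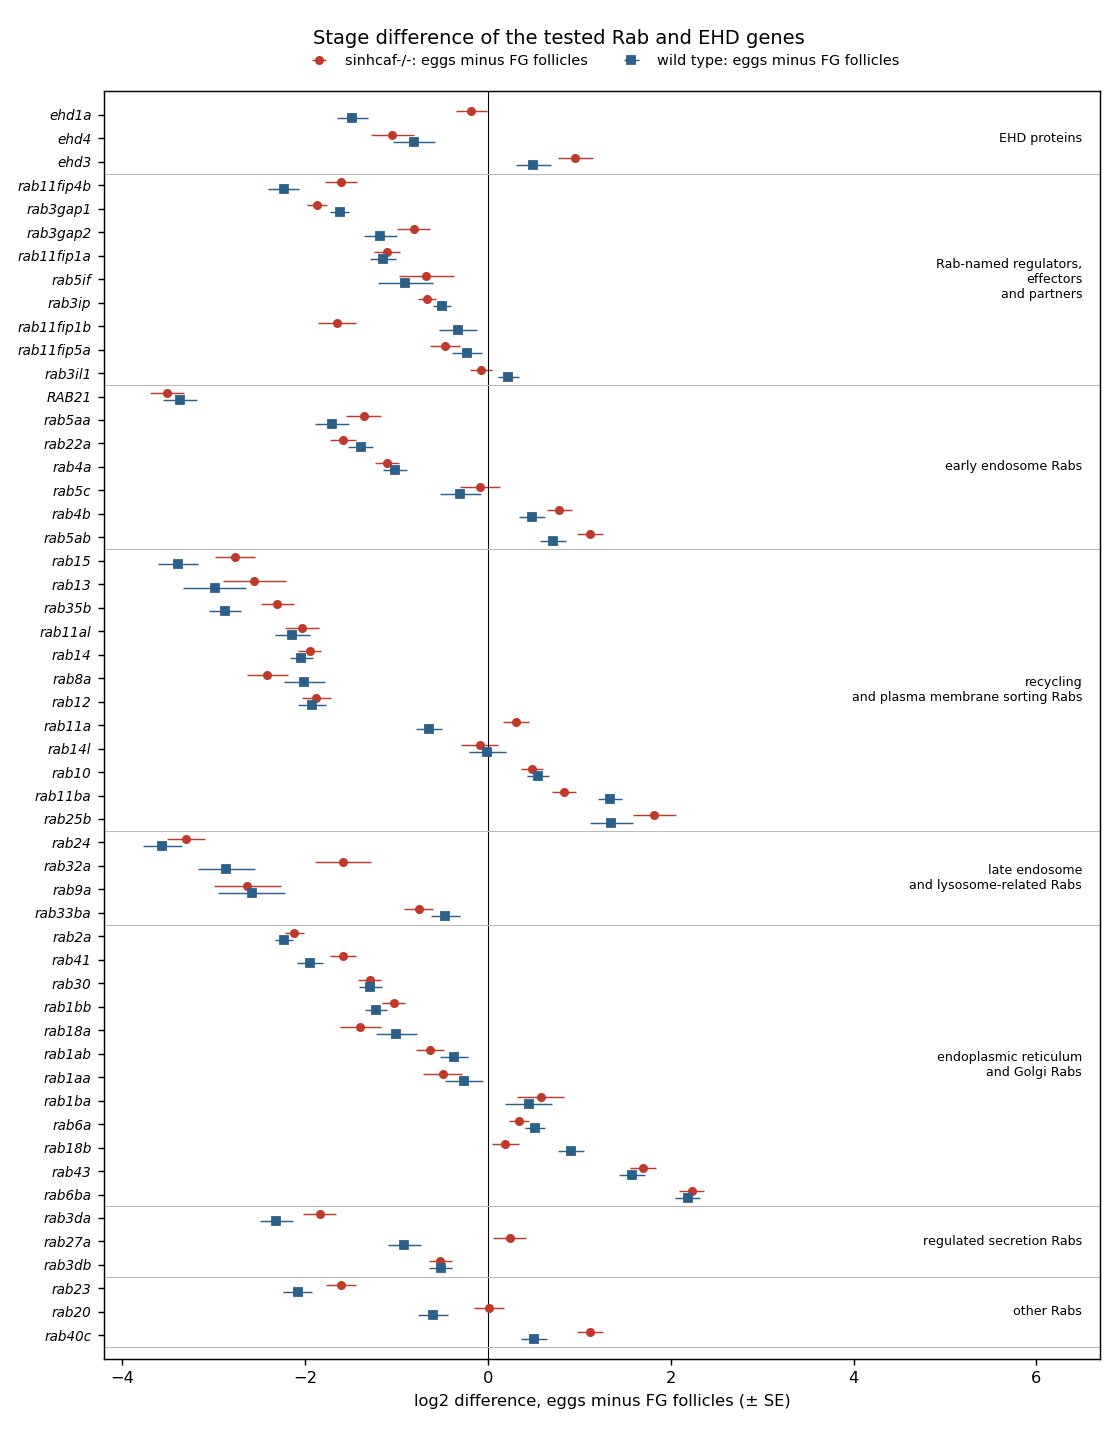
Log2 difference (eggs minus FG follicles, ± SE) of each of the 53 tested genes in sinhcaf-/- fish (circles) and wild-type fish (squares), grouped by role. RAB21, rab24 and rab15 lie at the low end and rab6ba and rab43 at the high end in both genotypes. Circles and squares separate for ehd1a, rab11a, rab27a and rab11fip1b, and also for rab32a, whose gap of 1.28 ± 0.44 (SE, limma adjusted p = 0.0881) was not called.

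The genes with the lowest egg levels relative to follicles in sinhcaf-/- fish were RAB21, an integrin-carrying early endosome Rab (-3.51 ± 0.19 SE, limma adjusted p = 3.10e-12), rab24 (-3.30), rab15 (-2.77), the late endosome-to-Golgi Rab rab9a (-2.63), rab13 (-2.56) and the exocytic rab8a (-2.42). In wild-type fish they were rab24 (-3.56 ± 0.21 SE, limma adjusted p = 1.16e-11), rab15 (-3.39), RAB21 (-3.37), the junctional rab13 (-2.99), rab35b (-2.88) and rab32a (-2.86). RAB21 averaged 1.14 ± 0.628 FPKM in sinhcaf-/- eggs and 22.6 ± 1.14 FPKM in sinhcaf-/- FG follicles, and 0.812 ± 0.159 FPKM in wild-type eggs and 18.1 ± 4.22 FPKM in wild-type FG follicles (mean ± SD, n = 5 each in eggs and 4 each in follicles).

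Higher in eggs in sinhcaf-/- fish were rab6ba, a copy of the Rab6B that is mainly neuronal in mammals (2.23 ± 0.14 SE, limma adjusted p = 2.21e-11), the Rab11 relative rab25b (1.82), rab43 (1.69), rab5ab (1.11), rab40c, part of a ubiquitin ligase in mammals (1.11), and ehd3 (0.95). In wild-type fish they were rab6ba (2.18 ± 0.14 SE, limma adjusted p = 2.92e-11), rab43 (1.58), rab25b (1.35), rab11ba (1.34), rab18b (0.91) and rab5ab (0.71). The rab25b transcript reached 1 FPKM in all 10 egg libraries and stayed under 0.5 FPKM in every follicle library. Within the Rab5 genes the copies went opposite ways: rab5aa was lower in eggs (-1.36 in sinhcaf-/-, -1.71 in wild type) and rab5ab higher. Each of the 12 stage calls named for each genotype was kept under all 34 alternatives, other scalings included. Among them RAB21, rab25b and ehd3 had passed the filter only through the stage where they were higher.

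The rest of the Rab and EHD machinery was counted from 6 lists of other genes (241 symbols, 155 tested), each described by its count with no test of the list. In eggs 10 were called higher and 7 lower in sinhcaf-/-, and in FG follicles 12 higher and 12 lower. That is 10.97% of them in eggs and 15.5% in FG follicles, where 15.1% and 23.5% of all tested genes were called. The median log2 change was 0.10 in eggs and -0.02 in follicles. Of 40 EHD partners and retromer genes 3 were called higher and 3 lower in eggs, and 1 higher and 4 lower in FG follicles. The largest change was in vps26a, a retromer subunit that returns receptors from endosomes to the Golgi, with 4.94 ± 2.12 FPKM in sinhcaf-/- and 16.8 ± 2.09 FPKM in wild-type eggs (mean ± SD, n = 5 each, log2 -1.64 ± 0.22 SE, limma adjusted p = 3.47e-05). In FG follicles it had 9.62 ± 3.23 FPKM in sinhcaf-/- and 47.7 ± 13.7 FPKM in wild type (mean ± SD, n = 4 each, log2 -2.20 ± 0.25 SE, limma adjusted p = 3.09e-06). The sorting nexin snx5 and the SNARE vti1a were higher in sinhcaf-/- eggs (log2 0.56 and 0.55, limma adjusted p = 0.0105 and 0.00709), and the sorting nexins snx1b and snx30 were lower in sinhcaf-/- FG follicles (log2 -0.53 and -0.51, limma adjusted p = 0.0153 and 0.00196).

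Of 34 exchange factor genes 4 were called higher and 2 lower in eggs, and 3 higher and 4 lower in follicles. The TRAPP subunit trappc5 was lower at both stages (log2 -1.13 ± 0.12 SE, limma adjusted p = 1.62e-06 in eggs, -0.61 ± 0.13 SE, limma adjusted p = 0.00271 in follicles), while trappc11 was higher in eggs (log2 0.59, limma adjusted p = 0.00495). The gene ankrd27, which in mammals binds Rab21 and Rab32, was higher at both (log2 0.67 ± 0.14 SE, limma adjusted p = 0.00286 and 0.47 ± 0.16 SE, limma adjusted p = 0.0376). In follicles the DENN-domain gene dennd6b was lower (log2 -1.19 ± 0.14 SE, limma adjusted p = 4.26e-06) and smcr8a higher (log2 0.80 ± 0.18 SE, limma adjusted p = 0.0036).

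Of 27 GTPase-activating genes of the TBC and related kinds 1 was called higher and 2 lower in eggs, and 4 higher and 1 lower in follicles. The gene tbc1d31 was lower at both stages (log2 -0.55 ± 0.10 SE, limma adjusted p = 0.00111 and -0.74 ± 0.12 SE, limma adjusted p = 1.33e-04). In eggs tbc1d30 was lower (log2 -0.47, limma adjusted p = 0.00352) and TBC1D8B higher (log2 0.43, limma adjusted p = 0.024). In follicles tbc1d19 and tbc1d4 were higher (log2 0.86 and 0.68, limma adjusted p = 1.32e-04 and 8.14e-04); TBC1D4 is known in mammals as a GTPase-activating protein of Rab10.

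Of 43 Rab effector genes 0 were called in eggs by limma (4 at an unadjusted p under 0.05), and 4 were higher and 1 lower in FG follicles. They include golga2, the Golgi matrix protein GM130 (log2 0.86 ± 0.22 SE, limma adjusted p = 0.00911), plekhm2 (log2 0.79, limma adjusted p = 0.0255) and the Rab5 effector appl2 (log2 0.58, limma adjusted p = 0.00613). Of 5 prenylation and recycling genes rabac1 was higher in eggs (log2 0.69 ± 0.17 SE, limma adjusted p = 0.00805); 0 were called in follicles by limma, with 1 at an unadjusted p under 0.05. Of 6 Rab-like genes rabl3 was higher in eggs (log2 0.48, limma adjusted p = 0.044), and ift27 and rabl6a were lower in follicles (log2 -0.43 and -0.32, limma adjusted p = 0.0143 and 0.0123).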

How the data were processed

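Messenger RNA was measured in 18 libraries (5 sinhcaf-/- and 5 wild-type egg, 4 sinhcaf-/- and 4 wild-type FG follicle). RNA had an integrity number of at least 7 and libraries were made with a stranded TruSeq kit, per the labels' protocols. The authors deposited FPKM values for 25432 genes, with all 18 columns used. The submitters' processing notes name Trimmomatic, HISAT2, Cufflinks, HTSeq and the build GRCz11, with no versions or roles; the annotation, the use of strand and the treatment of shared reads are not given in the sources used here. No counts were used; sequencing depth is unknown, and the error of a value is the spread between females.

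Values were taken as log2(FPKM + 1), and changes of low genes are drawn towards 0. The 10547 genes with at least 1 FPKM in at least 4 libraries were fitted with limma 3.58.1 in R 4.3.3 (4 group means, 14 residual degrees of freedom, eBayes with trend). Each of 5 contrasts was adjusted separately by Benjamini-Hochberg over all these genes. The fit was first tested on simulated data, with changes given to 200 of the more abundant genes. Simulated log2 changes of 0.5 were called for 33.8% of genes in eggs and 25% in FG follicles. For log2 changes of 1 these shares were 78.8% and 77.3%, so small changes were often missed. The sinhcaf transcript was also compared by an exact two-sided permutation test. Of 35 alternative settings (other pseudocounts, filters, scalings, variance models, replicate blocks and leaving out each library), 4 were added after the data were seen (egg libraries 1 to 3 only, egg libraries 4 and 5 only, sinhcaf-/- follicle libraries 1 and 3 averaged, libraries 2 and 4 only).

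Named were all EHD genes, called members (up to 20 per genotype contrast, 6 each way otherwise) and up to 3 called genes per pathway list and contrast; paralogues of these, abundant or uncalled members and neighbouring genes were named after their values were seen. The members and lists were chosen with earlier results of these data known. Same-numbered egg libraries deviated together (r = 0.121, 0.112, 0.359, 0.447 and 0.239), but only numbers 3 and 4 correlated best with their own number. Across genes libraries 1 to 3 stood apart from 4 and 5 in sinhcaf-/- eggs, but wild-type egg library 2 was as close to 4 as to 1. The main fit used no pairs, and the replicate number entered only as a block in alternative settings. The labels give no meaning to the numbers. FG follicle numbers did not pair (r from -0.118 to -0.0230), although the nested block covered both stages. Gene names are those of the deposited table; gene order came from an annotation of another build (GRCz12tu), so no coordinates are given.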

Additional observations from a re-analysis of the deposited data

Results flagged for a closer look

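In 9 of 80 groups checked (20 members in 4 groups each: the 17 called in a genotype comparison, ehd3, and the abundant rab5if and rab2a), 1 library lay far from the others of its group; chance flags about 1 in 20 groups. Above their group were rab6a in sinhcaf-/- egg library 5 (29.3 FPKM), rab11fip4b in sinhcaf-/- egg library 2 (0.350 FPKM) and in sinhcaf-/- FG follicle library 4 (5.51 FPKM), and rab41 in wild-type FG follicle library 3 (9.09 FPKM). Below their group were rab3db in wild-type egg library 1 (13.996 FPKM), rab11fip1b in wild-type egg library 3 (3.74 FPKM), rab5ab in wild-type egg library 5 (17.2 FPKM), rab41 in sinhcaf-/- egg library 1 (0.522 FPKM) and ehd3 in wild-type FG follicle library 2 (0.609 FPKM).

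The genotype change differed between eggs and FG follicles for 5 genes by the interaction term of the limma fit, given as the egg change minus the follicle change: ehd1a (1.30 ± 0.24 SE, limma adjusted p = 0.0026), rab27a (1.15 ± 0.25 SE, limma adjusted p = 0.00886), rab11a (0.94 ± 0.20 SE, limma adjusted p = 0.00773), rab18b (-0.72 ± 0.21 SE, limma adjusted p = 0.0442) and rab11fip1b (-1.32 ± 0.30 SE, limma adjusted p = 0.00958).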

How the results depend on the processing

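Over 35 settings no named gene turned direction. In eggs 366 of 385 values, of 11 named genes, stayed as in the main fit, called or not, 16 lost a call and 3 gained one. These include the values of ehd4 and ehd3, which were not called in eggs. In FG follicles 483 of 594 values, of 17 named genes with the uncalled ehd3 among them, stayed as in the main fit and 111 lost a call. For the difference between stages 141 of 170 values kept their call and 29 lost it, and all 408 stage values in each genotype kept it. Of the called members, ehd1a, rab11a, rab43, rab23 and rab6a in eggs and rab43, rab11a, ehd1a, rab11fip1b, rab6a and rab10 in FG follicles were called in every setting. With array weights 16 members were called in eggs in place of 9, and 14 in place of 5 for the difference between stages. The share of all tested genes called was then 24.4% in place of 15.1% and 22.6% in place of 6.95%. With the replicate block nested in stage 14 members were called in eggs, where 18.5% of all tested genes were. The block over all libraries gave 11, where 16.3% of all were called. A pseudocount of 0.1 left 9 of 16 calls in FG follicles, as did averaging sinhcaf-/- libraries 1 and 3, and libraries 2 and 4 alone left 6. Of all tested genes 17.2%, 19.0% and 15.03% were called in follicles under these settings, in place of 23.5%. With no filter beyond a value above 0 in 1 library, the low rab5b was added in both comparisons and the low ehd2b in FG follicles. Leaving out 1 library gave 8 to 10 calls in eggs, 9 to 17 in FG follicles and 4 to 6 for the difference between stages. The shares of all tested genes called were then 11.6 to 16.5%, 18.9 to 23.7% and 5.33 to 7.99%. Egg libraries 1 to 3 alone gave 11 egg calls and 4 and 5 alone gave 7, where 12.4% and 11.1% of all tested genes were called. For the difference between stages they gave 8 and 3, where 8.44% and 4.80% of all were called. The pathway lists had 35 genes called in either genotype comparison (27 to 42 on leaving out 1 library), 82 with array weights and 22 with sinhcaf-/- FG follicle libraries 2 and 4 only. The cause of these moves was not tested. Beside the egg calls named in the text, the nested block added rab18b and rab32a in FG follicles and rab20 and rab32a for the difference between stages, and lost none of these calls; the block over all libraries lost rab18b for that difference. The fit of each stage alone gives no difference between stages, and rab11fip4b was not tested with a minimum of 9 libraries. Depth is unknown, so the counting error of low genes could not be given.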

Other observations

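The genes next to the changed members on the chromosome were listed in an annotation of another build, which placed all 53 tested members and 9714 tested genes. Of the 20 nearest tested genes of rab11a, 6 were called in eggs and 11 in FG follicles, where 15.1% of placed genes were called in eggs and 23.3% in follicles. That follicle count was the highest of the 53 members. The egg and follicle counts were 5 and 4 for ehd1a, 5 and 2 for rab43, 4 and 4 for rab6a and 7 and 7 for rab10. They were 7 and 3 for rab23, 6 and 8 for rab33ba, 8 and 5 for rab3da and 4 and 10 for rab3db. On one side of rab11a stood ints14, an Integrator subunit gene, with a log2 change of 0.11 ± 0.10 in eggs and 1.06 ± 0.11 in FG follicles (SE, limma adjusted p = 0.542 and 1.22e-06), and on the other map2k1, a MAP kinase kinase gene, with -1.20 ± 0.13 and -0.78 ± 0.15 (SE, limma adjusted p = 3.46e-06 and 9.91e-04). Beside ehd1a stood ttc9c, lower at both stages (log2 -0.35 and -0.49, limma adjusted p = 0.0314 and 0.00544), and ubxn1, higher in eggs (log2 0.59, limma adjusted p = 0.0118). Beside rab3da stood pld6, a phospholipase D family gene, lower at both stages (log2 -0.90 and -0.67, limma adjusted p = 4.01e-07 and 5.73e-05), and asna1, higher in eggs (log2 0.43, limma adjusted p = 0.0125). Neither gene beside rab10, rab6a or rab23 was called at either stage. Neither gene beside rab43 was called in eggs, but nuf2 was lower in FG follicles (log2 -0.47, limma adjusted p = 0.00796). Both genes beside rab33ba were lower in FG follicles (log2 -0.97 and -0.89, limma adjusted p = 2.14e-05 and 0.00769) and not called in eggs. Beside rab3db stood tmem205, higher in eggs (log2 0.57, limma adjusted p = 0.0266). Members called in eggs had a median of 6 called neighbours of 20 in eggs, and members not called a median of 3. The highest egg count of the 53 members, 10, was that of rab41, which was not called in eggs. Medians were taken for eggs only. For FG follicles the counts of called members ran from 2 (rab43) to 11 (rab11a). Those of members not called in follicles ran from 0 (rab1aa) to 8 (rab20 and rab4b). These counts are a description made after the data were seen.

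The deposited annotation places 27 members in its endocytosis pathway, 18 of them tested. Of these 3 were called higher and 0 lower in eggs, and 6 higher and 3 lower in FG follicles, or 16.7% and 50.0%. Among the 175 other tested genes of that pathway 18 were called higher and 10 lower in eggs, and 12 higher and 19 lower in FG follicles, or 16.0% and 17.7%. Of all tested genes 15.1% were called in eggs and 23.5% in FG follicles. Over the 53 members the FG follicle share fell to 17.0% with sinhcaf-/- libraries 1 and 3 averaged, where 19.0% of all tested genes were called. It fell to 11.3% with libraries 2 and 4 alone, where 15.03% of all were called. The 50.0% was not recounted under these settings. Of the members with higher values in egg libraries 4 and 5 than in 1 to 3 (12 of 53, 22.6%, where 21.8% of all tested genes were so), rab5c and rab13 are examples chosen after their values were seen. The early endosome gene rab5c had 80.0 and 73.0 FPKM in these sinhcaf-/- eggs and 40.1 to 46.9 FPKM in the others, and 84.6 and 65.4 FPKM in these wild-type eggs and 39.8 to 47.2 FPKM in the others. The junctional gene rab13 had 15.1 and 11.7 FPKM in these sinhcaf-/- eggs and 2.94 to 5.49 FPKM in the others, and 9.65 and 8.39 FPKM in these wild-type eggs and 2.56 to 5.14 FPKM in the others. The late endosome gene rab9a had 1.45 to 2.46 FPKM in sinhcaf-/- eggs, against 0.809 to 9.27 FPKM in wild-type eggs.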
